A study of Homo sapiens with 2 samples.

Results

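Genes of the NF-κB pathway were described in LP-1 cells with and without added HIF-2α: the NF-κB subunits, their inhibitors and kinases, the adaptors and ubiquitin enzymes that control them, and genes that NF-κB is known to induce. The list held 35 genes by name, and a gene was taken when a probe set of the array carried its symbol alone. This found 33 of the 35, of 18377 genes measured; BIRC3 and TRAF2 were not analysed here. LP-1 is an established human multiple myeloma cell line, a cancer of plasma cells. The cells carried either pRUF-IRES-GFP without an insert (vector control) or pRUF-IRES-GFP-HIF2A with the full-length human HIF-2α cDNA (HIF2A), delivered by infection and kept as stable lines. RNA of each line was measured on 1 whole-transcript Affymetrix array, so every difference below compares 2 arrays, with no replicate and no test. Both lines carry the vector backbone with GFP, and the labels do not say whether the infected cells were a clone or a pool.

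NF-κB proteins are dimers that IκB proteins hold in the cytoplasm. In the canonical route the IκB kinase complex marks the inhibitors for destruction. In the alternative route the kinase NIK, held low by TRAF and cIAP proteins, drives the processing of p100 into the subunit p52. Several target genes encode inhibitors of the pathway, among them the ubiquitin-editing enzyme A20, so that signalling shuts itself down. In myeloma the pathway is driven by ligands of the bone marrow and, in some tumours, by mutations of its regulators, and it supports plasma cell survival.

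The data are log2 signals. Over 11469 genes past a filter on dim signals, for which the brighter array had to reach 4.01, differences (HIF2A minus vector control) had a median of 0.03 and a robust SD, taken from the median absolute deviation, of 0.34. EPAS1, which encodes HIF-2α, had 3.70 in the vector control and 9.05 in the HIF2A array, the highest difference of all, in the direction of the labels. The 95th percentile of 359 olfactory receptor genes, at 3.59 in the vector control and 3.58 in the HIF2A array, served as background. All 8 plasma cell markers were past the filter, though SLAMF7 and TNFRSF17 were lower with HIF-2α, both by at least 2-fold. The B cell markers MS4A1, PAX5 and CD22 were not past it, nor were 3 of the 4 T and NK cell markers, with NKG7 the exception at 4.47 and 4.81, and of the 12 myeloid, stromal and endothelial markers 4 were.

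Promoters are shown first for 4 genes: TNFAIP3 and LTA, which had the largest positive and the largest negative difference among the NF-κB genes past the filter, and BCL3 and NFKBIA, picked after their values were seen, as the next highest gene and as a classical feedback target of NF-κB. The sequences are RefSeq's for GRCh38.p14, 250 bases before to 50 bases after a transcription start, 5′ to 3′ on the strand of the gene. Capitals mark matches to the κB consensus, the 10-base motif that NF-κB dimers bind, searched on both strands.
TNFAIP3, chr6:137867009-137867308, plus strand: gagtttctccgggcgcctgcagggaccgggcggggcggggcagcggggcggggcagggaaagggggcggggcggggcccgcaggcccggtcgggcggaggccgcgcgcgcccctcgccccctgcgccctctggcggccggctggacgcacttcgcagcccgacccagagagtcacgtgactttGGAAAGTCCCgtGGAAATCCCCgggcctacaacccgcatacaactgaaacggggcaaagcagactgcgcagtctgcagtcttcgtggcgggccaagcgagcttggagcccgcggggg
LTA, chr6:31572039-31572338, plus strand: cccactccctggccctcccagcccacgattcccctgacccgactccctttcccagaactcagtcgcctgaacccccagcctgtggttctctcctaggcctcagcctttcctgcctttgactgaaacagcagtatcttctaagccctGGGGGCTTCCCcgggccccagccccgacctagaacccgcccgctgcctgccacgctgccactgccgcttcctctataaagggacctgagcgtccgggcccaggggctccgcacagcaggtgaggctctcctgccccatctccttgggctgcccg
BCL3, chr19:44748458-44748757, plus strand: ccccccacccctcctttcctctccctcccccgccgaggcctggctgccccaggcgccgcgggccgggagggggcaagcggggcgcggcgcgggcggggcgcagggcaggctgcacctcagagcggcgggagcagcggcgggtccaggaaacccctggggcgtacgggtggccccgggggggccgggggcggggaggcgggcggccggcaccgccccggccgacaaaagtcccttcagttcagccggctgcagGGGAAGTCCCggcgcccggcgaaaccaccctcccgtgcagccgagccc
NFKBIA, chr14:35404700-35404999, minus strand: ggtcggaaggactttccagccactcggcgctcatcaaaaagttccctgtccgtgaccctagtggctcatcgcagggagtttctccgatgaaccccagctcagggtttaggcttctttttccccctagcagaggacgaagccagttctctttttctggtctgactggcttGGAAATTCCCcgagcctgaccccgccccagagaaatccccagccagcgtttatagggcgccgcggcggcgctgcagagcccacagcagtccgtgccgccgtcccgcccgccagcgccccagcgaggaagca
The TNFAIP3 promoter holds 2 matches, GGAAAGTCCC and GGAAATCCCC, which begin 67 and 55 bases before the start. Upstream of them lies the hexamer CACGTG, which reads the same on both strands and so holds ACGTG, a core motif of HIF binding, on each. The LTA promoter holds 2 matches that overlap each other, the BCL3 promoter 1 just downstream of its start and the NFKBIA promoter 1 that begins 81 bases before it. A match is a description of the letters and not evidence of binding.

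Most NF-κB genes differed little between the arrays, and 2 stood out on the higher side. Over all 33 measured genes, with no filter, 19 were higher with HIF-2α, 13 lower and 1 equal, and the median difference was 0.07, beside a median of 0.00 over all 18377 genes. Over the 28 past the filter, 15 were higher, 12 lower and 1 equal, and the median was 0.025, beside 0.03 over all genes past it. Of the 28 past the filter, 1 was at least 2-fold higher, TNFAIP3, against 0.706% of the 11469 genes, and 0 were at least 2-fold lower, against 0.732%. At least 1.5-fold higher were 2, TNFAIP3 and BCL3, against 5.67% of genes, and 0 were at least 1.5-fold lower, against 4.76%. The 7.14% of the 28 at least 1.5-fold higher is near the background, and the count at 2-fold rests on 1 gene. TRAF3 and IKBKG passed the filter through the HIF2A array only. The remaining 5 genes, TRAF1, CD40, TNF, BCL2A1 and PLEK, were within the olfactory receptor range in both arrays, and no fold is given for them.

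**Figure D1:**
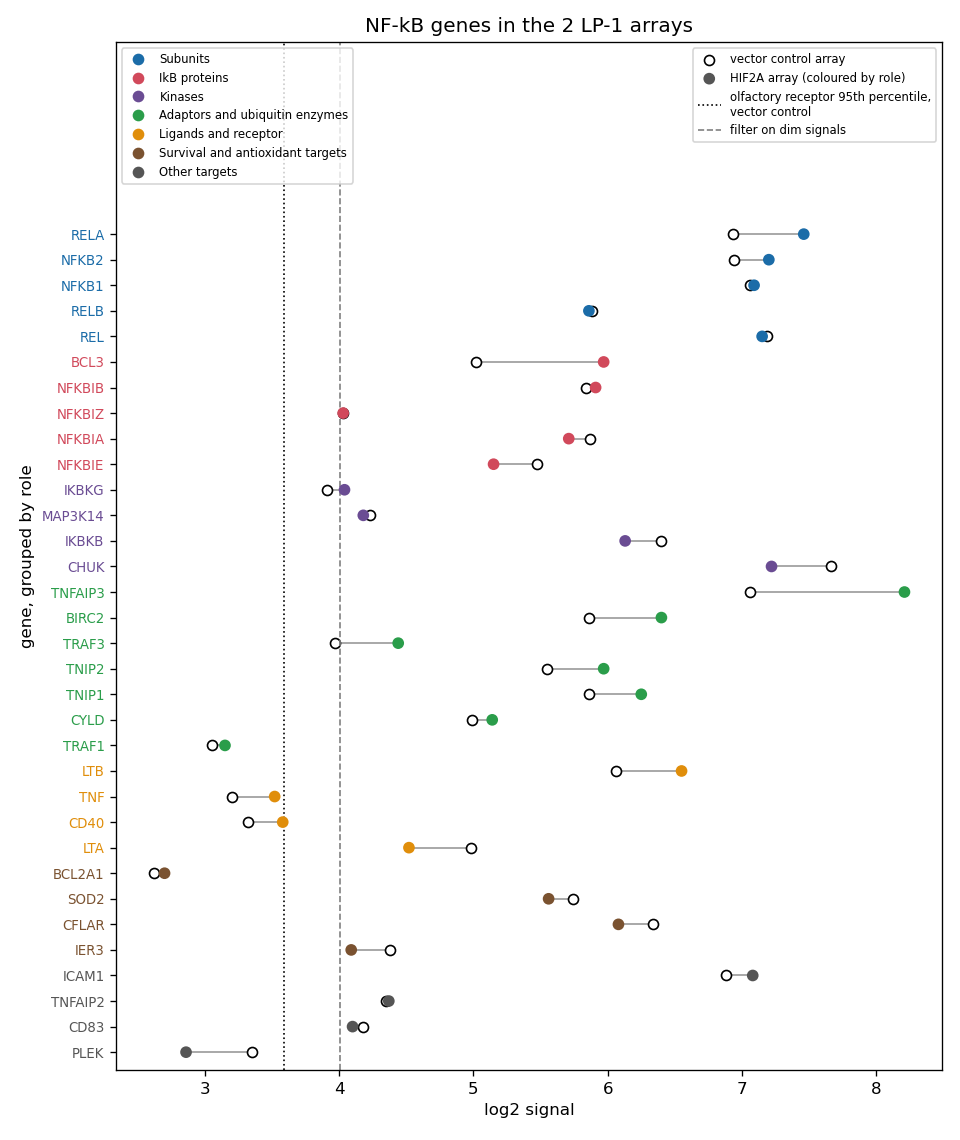
Log2 signals of the 33 measured NF-κB genes in the vector control array (open circles) and the HIF2A array (filled circles, coloured by role), with the olfactory receptor 95th percentile and the filter as vertical lines. TNFAIP3 and BCL3 have the widest gaps, and 5 genes lie in the background range in both arrays. Signals of different genes come from different probes and are not compared.

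The 5 subunits were all above background in both arrays. RELA, which encodes p65, the transactivating subunit of the canonical dimer, had 6.93 in the vector control and 7.46 in the HIF2A array, which is 1.44-fold and a difference of 0.53. Its usual partner gene NFKB1, the source of p50, had 7.06 and 7.09. The higher RELA signal thus stood beside a nearly equal NFKB1 signal. NFKB2, which encodes the p100 precursor of p52, had 6.94 and 7.20, a difference of 0.26. RELB, the partner of p52 in the alternative route, had 5.88 and 5.86. REL, which encodes c-Rel of lymphoid cells, had 7.19 and 7.15. Apart from RELA, each subunit gene thus lay within the robust SD of all genes, and their median difference was 0.03. NFKB1 changed sign under quantile normalization, at -0.01, so no direction is given for it.

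Of the IκB genes, BCL3 was higher in the HIF2A array and the classical cytoplasmic inhibitors were near equal or lower. BCL3, an atypical IκB protein that binds p50 and p52 dimers in the nucleus, had 5.02 in the vector control and 5.97 in the HIF2A array. This is 1.93-fold and a difference of 0.95, the 100th highest of the 11469 genes. Of 1146 genes of like mean signal (the same decile), 9, itself included, had a difference as high. NFKBIA, which encodes IκBα and is a rapid feedback target of NF-κB, had 5.87 and 5.71. NFKBIE, the gene of IκBε, had 5.47 and 5.15, a difference of -0.32. NFKBIB, the gene of IκBβ, had 5.84 and 5.91, and came to -0.02 after its neighbours. The first and second of these 3 inhibitor genes were thus on the lower side and the other was slightly higher, each by less than 0.34. NFKBIZ, an inducible nuclear IκB gene, had 4.03 in both arrays, just past the filter.

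Of the 4 kinase genes, 3 were lower and 1 was higher in the HIF2A array, where 5291 of the 11469 genes past the filter were lower. CHUK, which encodes IKKα, the kinase of the alternative route, had 7.66 in the vector control and 7.22 in the HIF2A array, 1.36-fold lower, with a difference of -0.44. IKBKB, the gene of IKKβ, had 6.40 and 6.13. Its difference of -0.27 came to -0.03 once the median of its 20 nearest measured neighbours, -0.24, was subtracted. Among the kinase genes only CHUK therefore differed by more than the robust SD. MAP3K14, which encodes NIK, had 4.23 and 4.18, and IKBKG, the gene of the scaffold NEMO, had 3.91 and 4.04. Both are dim, and a pseudogene close to IKBKG may share its probes, which was not analysed here.

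All 7 measured adaptors and ubiquitin enzymes, with no filter, had a positive difference, with a median of 0.42, where 48.9% of all 18377 genes had one, but only TNFAIP3 reached 1.5-fold. Of these 7, TRAF1 was in the background range and TRAF3 passed the filter through the HIF2A array only. Adaptors and ubiquitin enzymes in the list of other signalling genes below went both ways, with TRAF6 at 0.63 and UBE2N at -0.32. TNFAIP3, which encodes A20, a ubiquitin-editing enzyme that shuts down signalling to the IκB kinase, had 7.06 in the vector control and 8.21 in the HIF2A array. This is 2.22-fold and a difference of 1.15, the 48th highest of 11469, and 8 of the 1147 genes of like signal, itself included, had one as high. Its 20 nearest measured neighbours on chromosome 6 differed by -0.15 at the median, the other way from the gene itself.

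The A20 partners TNIP1 and TNIP2, which encode ABIN1 and ABIN2, were higher by smaller amounts. TNIP1 had 5.86 and 6.25, but its neighbours on chromosome 5 had a median of 0.35, and 0.04 was left after subtracting it. TNIP2 had 5.55 and 5.97, a difference of 0.42, or 0.27 after its neighbours. BIRC2, which encodes cIAP1, a ubiquitin ligase that helps to keep NIK low, had 5.86 and 6.40, or 1.45-fold. TRAF3, the adaptor that brings NIK to that ligase, had 3.97 and 4.44, or 1.39-fold, from a vector control signal below the filter. CYLD, a deubiquitinase that opposes the pathway, had 4.99 and 5.14. TRAF1, an NF-κB target, was in the background range in both arrays, at 3.05 and 3.15. Of the 11 alternative settings, 5 could change the values of the 6 genes past the filter, and the lowest value among these was 0.04, for TNIP1.

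**Figure D2:**
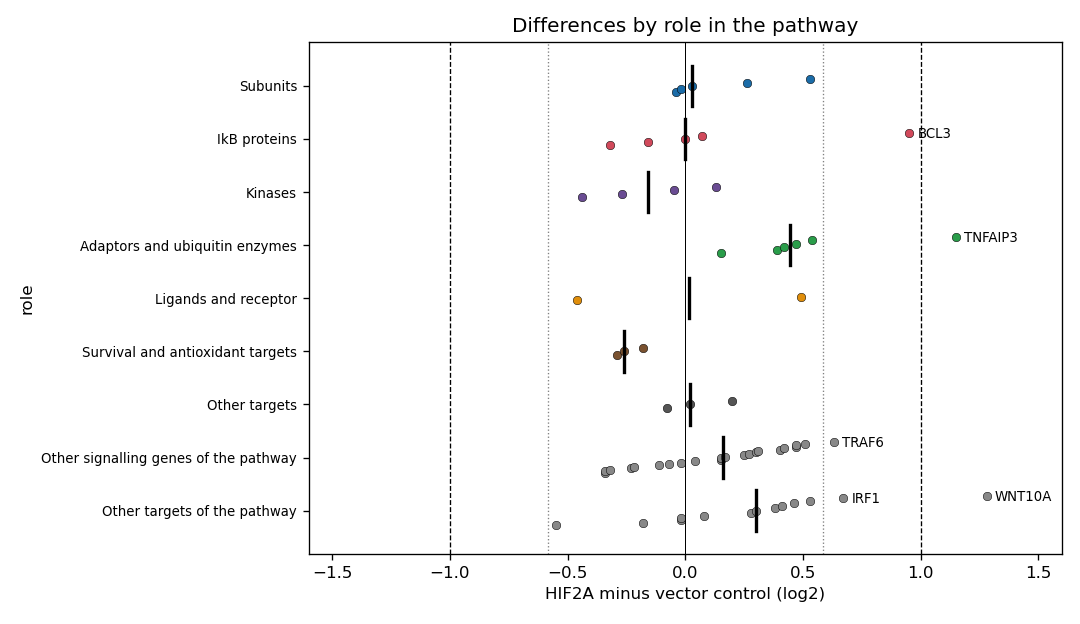
HIF2A minus vector control differences (log2) of the genes past the filter by role, with black bars at each group's median, dotted lines at 1.5-fold and dashed lines at 2-fold. TNFAIP3 at 1.15 and BCL3 at 0.95 lie farthest to the right among the 28 genes of the upper rows; the lower rows show other genes of the pathway in grey.

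The ligand genes LTA and LTB, neighbours on chromosome 6 whose products form a heterotrimer that signals through the alternative route, had opposite signs. LTA had 4.98 in the vector control and 4.52 in the HIF2A array, 1.38-fold lower, with a difference of -0.46, and its other probe sets differed by -0.31 and -0.36. LTB had 6.06 and 6.55, a difference of 0.49, on 3 probe sets with identical values. Its remaining, dimmer probe set went the other way, at 4.85 and 4.33, a difference of -0.52. The direction of LTB therefore depends on the probe set. TNF, the ligand of the canonical route, had 3.20 and 3.52, and CD40, a receptor of B lineage cells, 3.32 and 3.58, all within the background range.

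Of the 4 targets linked to survival and to oxidative stress, 3 were past the filter. None of the 3 differed by 1.5-fold, where 89.6% of all genes past the filter also lay within it. With no filter, 3 of the 4 had a negative difference and 1 a positive one, where 9108 of all 18377 genes had a negative one. CFLAR, which encodes the caspase-8 inhibitor c-FLIP, had 6.34 in the vector control and 6.08 in the HIF2A array, and its other probe set had 5.65 and 5.09, a difference of -0.56. SOD2, the gene of mitochondrial superoxide dismutase, had 5.74 and 5.56. IER3, a stress-induced survival gene, had 4.38 and 4.09. On the brightest probe set these 3 differences lay between -0.29 and -0.18, within the robust SD of all genes. BCL2A1, an anti-apoptotic BCL2 relative and a classical target, was in the background range, at 2.62 and 2.70.

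The other targets were near equal in the 2 arrays. ICAM1, an adhesion molecule induced by NF-κB in many cells, had 6.88 in the vector control and 7.08 in the HIF2A array. TNFAIP2 had 4.35 and 4.37, and the activation marker gene CD83 had 4.18 and 4.10. Both changed sign after the median of their neighbours was subtracted, to -0.27 and 0.02. PLEK, which encodes pleckstrin, was in the background range, at 3.35 and 2.86. Of the 28 NF-κB genes past the filter, 2 were at least 1.5-fold higher, against 5.67% of all genes past it. These were TNFAIP3 and BCL3, both targets of the pathway as well. Of other targets named above, ICAM1 and TNFAIP2 had differences of 0.20 and 0.02. CD83, NFKBIA, SOD2, CFLAR and IER3 had -0.08, -0.16, -0.18, -0.26 and -0.29.

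**Figure D3:**
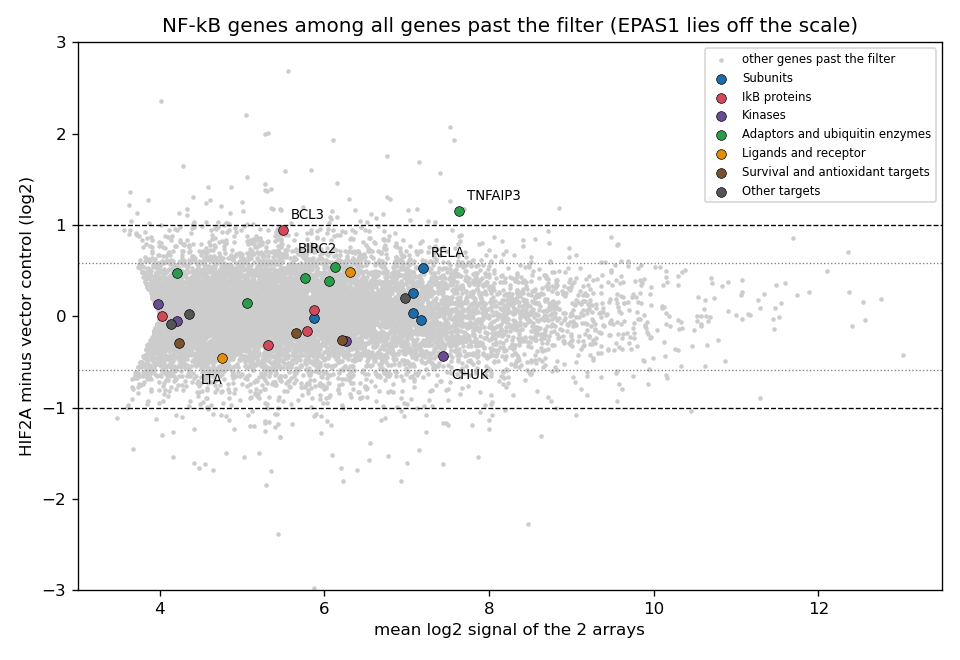
HIF2A minus vector control difference (log2) against the mean log2 signal of the 2 arrays for the 11469 genes past the filter, with the 28 NF-κB genes past it coloured by role; dotted lines mark 1.5-fold and dashed lines 2-fold. TNFAIP3 and BCL3 lie near the upper edge of the cloud, at 1.15 and 0.95, and the other 26 NF-κB genes lie between the dotted lines.

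Further genes of the pathway were taken from 2 lists. Of 31 other signalling genes, 22 were past the filter, of which 14 were higher (63.6%) and 8 lower with HIF-2α, and the median was 0.16. Over all genes past the filter, 52.6% were higher and the median was 0.03. In this list 1 of the 22 was at least 1.5-fold higher, or 4.55%, against 5.67% of all genes past the filter. It was TRAF6, the ubiquitin ligase of Toll-like and interleukin-1 receptors, at 5.51 against 4.88. MALT1, a protease of antigen receptor signalling, had 5.97 against 5.46, and OTULIN, which removes linear ubiquitin chains, had 5.74 against 5.27. The BAFF receptor gene TNFRSF13C and the kinase gene TBK1 each differed by -0.34, and UBE2N, a ubiquitin-conjugating enzyme gene, by -0.32. With no filter, 15 of the 26 measured genes of this list were higher and 11 lower, and the median was 0.12. Over all 18377 genes, 48.9% were higher and the median was 0.00.

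Of 24 other targets, 13 were past the filter, with 9 higher (69.2%), 4 lower and a median of 0.30. Of the 9, CCL3 and IRF1 passed through the HIF2A array only. Over all genes past the filter, 52.6% were higher and the median was 0.03. With no filter, 14 of the 23 measured targets were higher, 8 lower and 1 equal, and the median was 0.08. The median over all 18377 genes was 0.00. WNT10A, a Wnt ligand gene, had 6.16 in the vector control and 7.44 in the HIF2A array. This is 2.43-fold and the 28th highest difference of 11469. IRF1, an interferon response factor gene, had 4.31 against 3.64, the latter close to background, among neighbours on chromosome 5 with a median of 0.29. TAP1, the peptide transporter gene, had 8.50 against 7.97. XIAP, an inhibitor of caspases, was 1.46-fold lower, at 4.44 against 4.99, and GADD45B differed by -0.18. The other 10 measured targets were below the filter.

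NF-κB genes with a κB match near a start differed little at the median from those without. RefSeq promoters were found for 30 of the 35 listed genes, not for RELB, NFKBIE, CD40, IKBKB and IER3. A κB consensus match stood in a listed promoter of 16 of the 30, or 53.3%, against 13.3% of 27305 genes. The list includes known targets of NF-κB. A gene counted when any of its listed promoters held a match, so genes with more promoters had more chances of one. Of all 35116 promoters, 11.3% held a match. Of the 24 with a promoter and past the filter, the 15 with a match had a median difference of 0.07 and the 9 without one had 0.13. Over all genes with a promoter and past the filter, the median was 0.04 with a match and 0.04 without. CD83 had up to 6 partly overlapping matches and a difference of -0.08, NFKB2 up to 3 and 0.26, and TNFAIP3 2 and 1.15. ACGTG, searched on both strands, was found for 4 of the 30 genes, which are TNFAIP3, CFLAR, IKBKG and TNFAIP2, or 13.3%, against 24.9% of all genes. Of these 4, all past the filter, TNFAIP3 alone was at least 1.5-fold higher, where 5.67% of all genes past the filter were. The median difference of the 4 was 0.075, beside 0.11 for the 20 NF-κB genes past the filter with a promoter and no ACGTG. Over all genes with a promoter and past the filter, the median was 0.05 with ACGTG and 0.03 without. In the windows printed above, the 3 promoters of BCL3, LTA and NFKBIA hold no ACGTG. Only ACGTG was searched, and other sequences that HIF may bind were not analysed here.

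**Figure D4:**
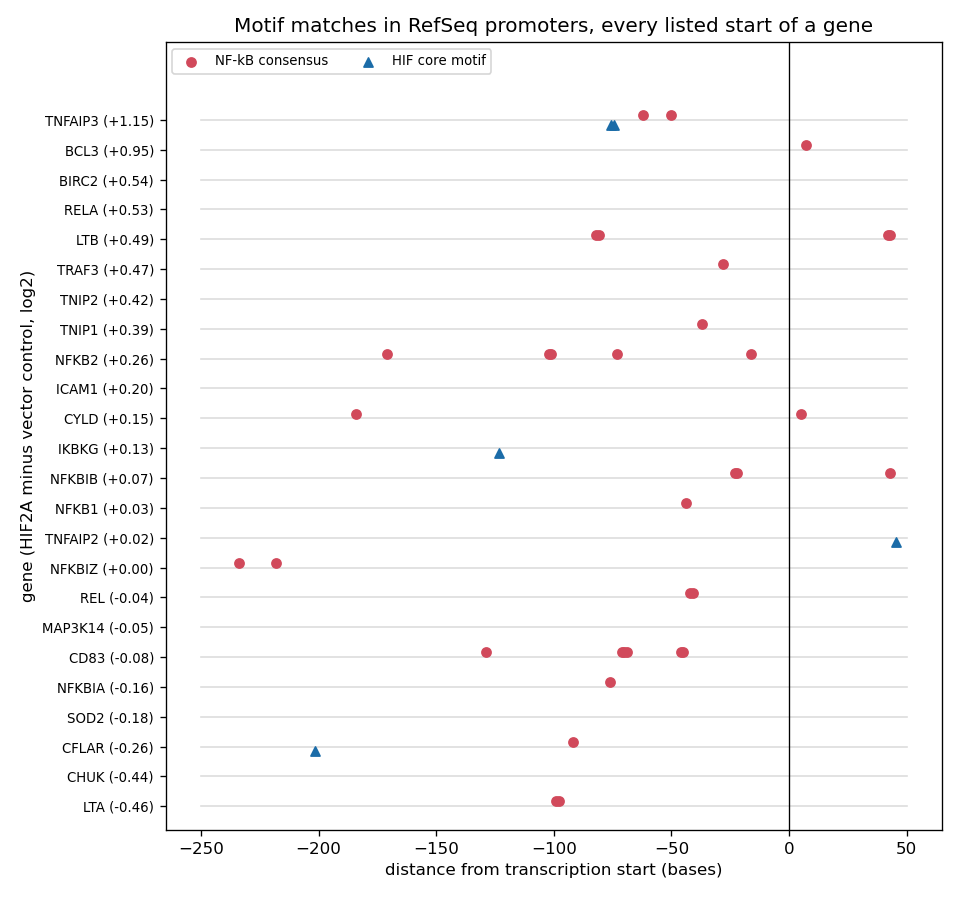
Positions of κB consensus matches (red circles) and of ACGTG, a core motif of HIF binding (blue triangles), relative to the transcription start, in bases. Every listed promoter of the 24 NF-κB genes with a promoter and past the filter is included. Genes are ordered by HIF2A minus vector control difference (log2, in brackets). Matches stand beside both high and low differences, and the genes with both kinds are TNFAIP3 at 1.15 and CFLAR at -0.26.

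The differences were then set beside those under other processing. TNFAIP3 lay between 0.99 and 1.30 and BCL3 between 0.56 and 0.97 over the alternative settings, of which 5 could change them. CHUK lay between -0.47 and -0.37, and RELA between 0.40 and 0.55. Each of these 4 genes kept its sign, whereas LTB, NFKB1, NFKBIB, TNFAIP2 and CD83 changed it in 1 setting each, as given above.

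**Figure D5:**
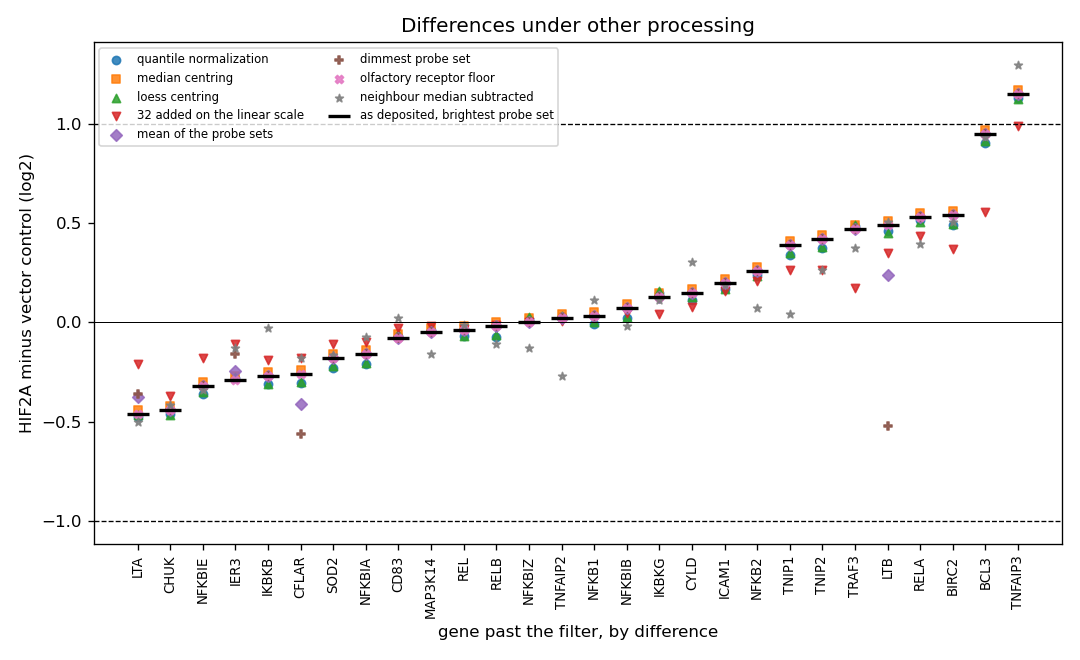
HIF2A minus vector control difference (log2) of the 28 NF-κB genes past the filter as deposited (black bars) and in the 8 settings that can change a gene's own value (coloured symbols); dashed lines mark 2-fold. Genes are ordered once, by their difference as deposited, so the place of TNFAIP3 and BCL3 at the right end is fixed by that order. LTB falls to -0.52 with its dimmest probe set.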

How the data were processed

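The authors deposited log2 signals per probe set of 2 arrays. Per the submitters' processing notes, they used Affymetrix Expression Console; its version, the algorithm and any background correction are not stated in the labels. That the log base is 2 follows from the highest value, 13.97, which a natural log of a 16-bit reading (at most 11.09) cannot reach. Of 28869 probe sets, 19310 carry a single gene symbol in the array annotation, 1752 several and 7807 none, and only the first were used. Of the 19310, 19278 matched a RefSeq gene by Entrez number. Each gene was represented by its brightest probe set (mean of both arrays).

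The members and lists were chosen with earlier results of these data known. Each group has 1 array, so differences have no test and the number of arrays limits their precision. By the naming rule all members may be named, with up to 3 genes at either end of each list of other genes; CCL3, IL2RG and the named markers were chosen with their values in view. The median of the 20 nearest measured genes past the filter was taken in RefSeq gene order. The alternatives were scaling (quantile, median, loess with span 0.3 and 3 passes), an offset of 32 on linear values, filtering at the 25th or 75th percentile or not at all, the mean or the dimmest probe set, a floor at the olfactory receptor 95th percentile, and subtraction of the neighbours' median. The code was tested on simulated data. Python 3.11.15, numpy 2.4.6, pandas 2.3.3, statsmodels 0.14.6 and matplotlib 3.10.9 were used.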

Additional observations from a re-analysis of the deposited data

How the results depend on the processing

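Of 358 values of the 33 genes in the 11 alternative settings, 353 moved by less than the robust SD of all differences, 0.34. The filter settings leave each gene's own difference as it is, and the probe set settings can alter only genes with several probe sets, so many of these values could not move. The other 5 were BCL3 at 0.56 and PLEK at -0.10 with 32 added on the linear scale, PLEK at -0.01 with the background floor, LTB at -0.52 with its dimmest probe set, and TNIP1 at 0.04 after subtracting its neighbours. With 32 added, which shrinks differences of dim genes by construction, TNFAIP3 came to 0.99, so 0 genes were at least 2-fold and 1 at least 1.5-fold higher. With the 75th percentile filter, which leaves 18 of the genes, their median was 0.14, against 0.025 over the 28 with the filter used above. In the other settings the counts at 2-fold and at 1.5-fold were those reported, with TNFAIP3 and BCL3 the genes at least 1.5-fold apart. No paired analysis was possible because each group has 1 array, and no array could be left out.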

Other observations

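The interleukin-2 receptor gamma chain gene IL2RG, which with TNFAIP3, BIRC3 and CD74 is used as an index of NF-κB activity in myeloma, was looked up after the other values were seen. It had 8.24 in the vector control and 8.62 in the HIF2A array, or 0.38 more, close to the robust SD of all genes. Its sign was that of TNFAIP3, but counted from the top IL2RG ranked 1807 of 11469, where TNFAIP3 ranked 48. Targets named above went both ways, among them ICAM1 at 0.20 and NFKBIA at -0.16. BIRC3 and CD74 were not analysed here.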
